A study of Mus musculus with 12 samples.

Results

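The genes described here are 10 known targets of Wnt signaling in the hepatocytes around the central vein of the liver lobule: *Glul*, *Oat*, *Slc1a2*, *Rhbg*, *Axin2*, *Rnf43*, *Znrf3*, *Lgr5*, *Tbx3* and *Lect2*. They were taken from the gene table by symbol, 10 of 24532 listed genes, and all 10 were among the 14038 genes with enough counts to be tested. Liver RNA-seq was done in male C57BL/6 mice in 4 groups of 3 livers. The WT groups were *Ahr* fl/fl littermates without Cre, and the *Ahr* HKO groups carried *Ahr* fl/fl with *Alb-Cre*, in which the albumin promoter drives Cre and removes exon 2 of the aryl hydrocarbon receptor gene in hepatocytes, so that other liver cells keep it. The mice began at an age of 10 to 12 weeks and received for 5 weeks either a Lieber-DeCarli liquid diet with ethanol at 5% of the volume and 36% of the calories (WT-EtOH and HKO-EtOH) or a control liquid diet of equal calories (WT-con and HKO-con). Floxed alleles were thus shared by all 4 groups, and each library came from whole liver.

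In the canonical pathway, Wnt ligands and R-spondins from central vein endothelium bind Frizzled, LRP and LGR receptors on neighbouring hepatocytes, which spares beta-catenin from degradation and lets it act with TCF/LEF factors on target genes. Pericentral targets include genes for glutamine synthesis from ammonia, and also components of the pathway that feed back on it. ZNRF3 and RNF43 are ubiquitin ligases that remove Frizzled receptors from the cell surface, LGR5 binds R-spondins that hold these ligases back, and AXIN2 is a scaffold of the complex that degrades beta-catenin.

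The promoters of the members in RefSeq (GRCm38.p6) were read for 2 sets of letters, over windows of 300 bases from 250 before to 50 after a transcription start. Windows were matched for 6 of the 10 genes, 7 windows in all, because *Rnf43* had 2 starts. TCF/LEF letters were searched as CTTTG followed by AT, by TT or by AA on both strands, and stood in 2 of the 7 windows and in 13.9% of 32851 windows of all genes. The core letters of the site bound by the AhR dimer, GCGTG on both strands, stood in 2 of the 7 windows and in 32.4% of all windows. The 3 windows with either set of letters are shown because they place these letters relative to the start, with the letters found in capitals, as read on the printed strand.
Slc1a2 (chr2:102706188-102706487, plus strand): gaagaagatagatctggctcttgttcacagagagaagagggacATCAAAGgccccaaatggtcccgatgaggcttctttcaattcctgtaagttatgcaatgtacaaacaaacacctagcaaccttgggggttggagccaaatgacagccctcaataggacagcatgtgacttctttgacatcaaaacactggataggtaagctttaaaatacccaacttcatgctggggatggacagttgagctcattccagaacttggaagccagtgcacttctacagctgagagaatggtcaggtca
Lect2 (chr13:56548489-56548788, minus strand): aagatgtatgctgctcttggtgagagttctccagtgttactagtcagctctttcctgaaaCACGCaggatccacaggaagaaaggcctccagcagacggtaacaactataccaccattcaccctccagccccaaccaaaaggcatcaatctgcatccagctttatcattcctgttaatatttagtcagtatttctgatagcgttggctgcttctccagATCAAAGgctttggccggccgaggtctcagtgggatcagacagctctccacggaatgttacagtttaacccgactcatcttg
Rnf43 (chr11:87662837-87663136, plus strand): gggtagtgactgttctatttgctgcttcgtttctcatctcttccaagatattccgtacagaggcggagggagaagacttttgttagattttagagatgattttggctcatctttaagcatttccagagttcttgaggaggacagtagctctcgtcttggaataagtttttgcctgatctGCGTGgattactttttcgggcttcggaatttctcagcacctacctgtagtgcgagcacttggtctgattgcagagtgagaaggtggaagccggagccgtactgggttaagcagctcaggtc
In the *Slc1a2* window ATCAAAG began 207 bases before a start that lies inside the span of the gene. In the *Lect2* window ATCAAAG began 32 bases and CACGC 190 bases before the start, and in the *Rnf43* window GCGTG began 71 bases before it. The windows of *Glul*, *Oat* and *Axin2* and the second of *Rnf43* held neither set. A match is a stretch of letters, not a shown binding site.

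Each library held 46306518 to 74336255 counts on genes, and livers of a group correlated at r = 0.969 to 0.98 across tested genes, against 0.932 to 0.973 between groups (genes are not independent replicates). Summed reads of *Ahr* itself cannot check the knockout, since the deleted exon is not counted apart, and they ran opposite to it, at 16.6 to 20.1 CPM (counts scaled to library size) in WT-con against 41.3 to 65.5 CPM in HKO-con (adjusted p = 0.00167 in edgeR), and at 20.8 to 30.5 CPM in WT-EtOH against 24.7 to 41.8 CPM in HKO-EtOH. *Cyp1a2*, a P450 induced by AhR, was lower in libraries labelled *Ahr* HKO, at 90.7 to 258 CPM against 398 to 617 CPM on the control diet (adjusted p = 0.0191) and at 629 to 684 CPM against 992 to 1212 CPM on the ethanol diet (adjusted p = 0.0457, edgeR quasi-likelihood test for both). *Cyp1a1*, another AhR target, went against the label on the control diet, at 0.204 to 0.349 CPM in WT-con and 0.444 to 0.898 CPM in HKO-con (2.82-fold higher, adjusted p = 0.0458), and on ethanol it was at 1.02 to 1.66 CPM in WT-EtOH and 1.03 to 1.67 CPM in HKO-EtOH (log2 fold change -0.04 ± 0.306). Genotype directions below therefore rest on the labels. Markers of hepatocytes summed to 90151 to 132187 CPM, and markers of other liver cells were present in every group, so the samples match whole liver. In such bulk libraries fewer cells of a type and less RNA per cell cannot be told apart.

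Per gene length, in FPKM, *Glul* and *Oat* had the highest levels of the 10 genes in all groups. *Glul*, glutamine synthetase, averaged 431 ± 41.6 FPKM (SD, n = 3) in WT-con, and *Oat*, the mitochondrial ornithine aminotransferase, averaged 415 ± 69.7 FPKM, a pair whose ranges overlapped. *Lect2*, a secreted hepatokine, followed at 92.7 ± 9.12 FPKM, and *Slc1a2*, a glutamate transporter, at 22.5 ± 2.52 FPKM, each apart from its neighbours in the order. Below them the ranges of *Rnf43* (5.62 ± 0.718 FPKM), the ammonia channel gene *Rhbg* (5.22 ± 1.21 FPKM) and *Tbx3*, a transcription factor gene (5.16 ± 1.45 FPKM), overlapped. The lowest levels in WT-con were those of *Axin2* (2.17 ± 0.673 FPKM), *Lgr5* (1.84 ± 0.378 FPKM) and *Znrf3* (1.63 ± 0.145 FPKM), whose neighbouring ranges also overlapped.

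The order held at its upper end in the other groups, with *Oat* and *Glul* first, then *Lect2*, then *Slc1a2*. *Rhbg* went from rank 6 in WT-con and HKO-con to rank 5 in WT-EtOH and HKO-EtOH, where its mean was 25.1 ± 7.05 and 15.2 ± 1.42 FPKM, and *Rnf43* had rank 5 in WT-con and rank 7 in the other groups. In WT-EtOH the range of *Rhbg* overlapped that of *Slc1a2* above it. *Lgr5* was last in WT-EtOH, HKO-con and HKO-EtOH, where the range of *Lgr5* lay wholly below that of its neighbour.

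**Figure D1:**
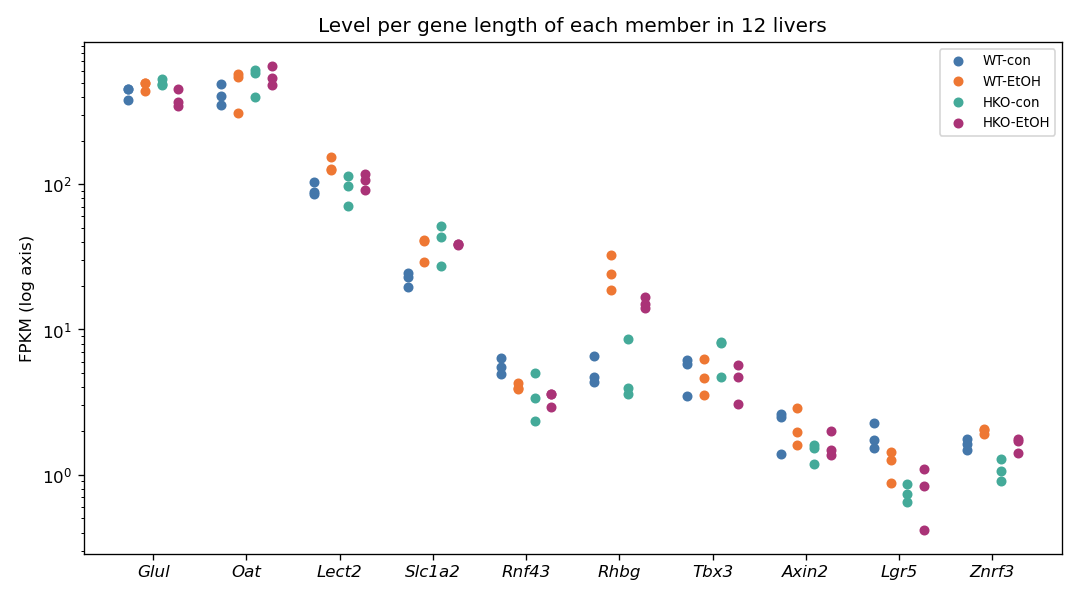
FPKM of each of the 10 genes in 12 livers, on a log axis, with 1 point per liver coloured by group and genes ordered by their WT-con mean. *Glul* and *Oat* lie at the top in every group, *Rhbg* stands higher in both ethanol groups, and *Lgr5* has its lowest group mean, 0.748 FPKM, in HKO-con.

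Ethanol in WT livers was compared with the control diet to ask how the diet moved the pericentral program with AhR intact. *Rhbg* rose and *Rnf43* fell, and the other 8 members did not pass an adjusted p of 0.05. Across all tested genes 8.72% were called, 4.24% higher and 4.48% lower, and the 2 of 10 members called (1 in each direction) are read against that share. The median log2 fold change of the 10 members was 0.0015, against 0.013 for all tested genes.

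The *Rhbg* level was 8.75, 9.68 and 13.3 CPM in the 3 WT-con livers and 62.5, 40.7 and 33.7 CPM in the 3 WT-EtOH livers. Every ethanol liver lay above every control liver. The log2 fold change was 2.11 ± 0.262 (SE), or 4.32-fold, with an adjusted p of 0.00591 in edgeR.

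*Rnf43* stood at 29.0, 22.9 and 25.0 CPM in WT-con and at 18.5, 15.1 and 15.9 CPM in WT-EtOH. The groups did not overlap, and the log2 fold change was -0.64 ± 0.127 with an adjusted p of 0.0267. Fitted 6 times with a different liver removed, it was called 1 time, with the adjusted p between 0.0298 and 0.0841, and it held in 9 of 10 other alternatives. It was lost without each of the WT-con livers and without livers 2 and 3 of WT-EtOH.

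*Lgr5* had 7.60, 11.4 and 8.56 CPM in WT-con and 4.13, 5.23 and 6.43 CPM in WT-EtOH, again without overlap. Its log2 fold change was -0.80 ± 0.217 (adjusted p = 0.0639 with edgeR). Of 16 alternatives only 1, DESeq2, called it (adjusted p = 0.011). The 6 edgeR fits with a liver removed did not (adjusted p from 0.0606 to 0.189). *Slc1a2* had 191, 155 and 174 CPM in WT-con against 290, 262 and 210 CPM in WT-EtOH. Its groups did not overlap either, with a log2 fold change of 0.55 ± 0.145 and an adjusted p of 0.0584. DESeq2 gave an adjusted p of 0.00573 for *Slc1a2*. It was called in 1 of 6 fits with a liver removed and in 4 of 10 other alternatives, DESeq2 included.

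*Lect2* had 95.3, 83.7 and 79.3 CPM in WT-con and 136, 98.2 and 104 CPM in WT-EtOH, without overlap, for a log2 fold change of 0.39 ± 0.145 (adjusted p = 0.146). In total the ranges of 5 members did not overlap between the WT diets, against 32.9% of all tested genes. *Glul*, *Oat*, *Axin2*, *Znrf3* and *Tbx3* overlapped between the diets, with log2 fold changes from -0.25 for *Tbx3* to 0.11 for *Znrf3*.

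**Figure D2:**
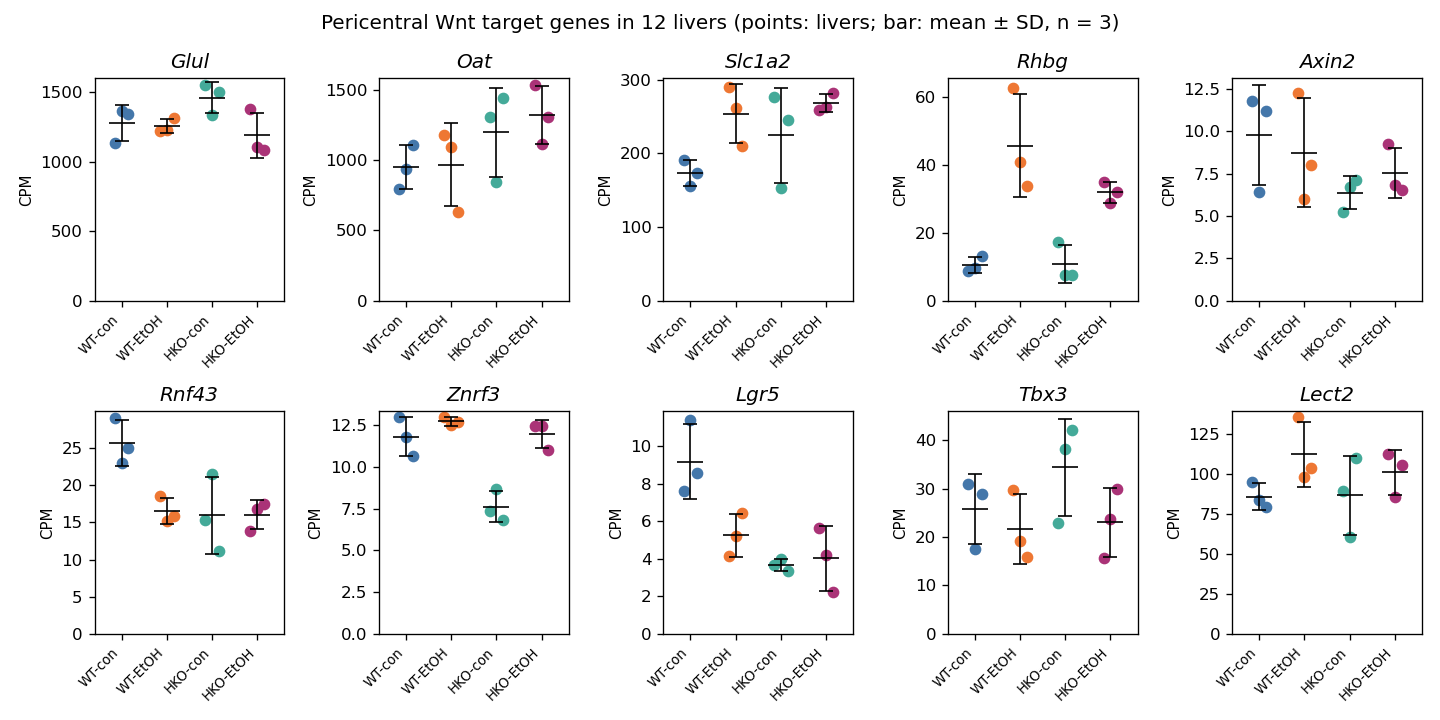
CPM of the 10 genes in each of the 12 livers, with 1 panel per gene, axes from 0, points for livers and bars for the mean ± SD of 3 livers. *Rhbg* is higher on ethanol in both genotypes, *Lgr5* is highest in the 3 WT-con livers, and *Znrf3* is lowest in the 3 HKO-con livers.

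On the control diet, livers labelled *Ahr* HKO were compared with WT to ask what loss of AhR from hepatocytes did without ethanol. *Lgr5* and *Znrf3* were lower in HKO-con, and no member was called higher. Of all tested genes 29.7% were called, 15.3% higher and 14.4% lower, and 2 of 10 members is not above that background. The members' median log2 fold change was 0.023, against -0.0044 for all tested genes.

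*Lgr5* stood at 3.66, 3.99 and 3.35 CPM in HKO-con, below the 7.60 to 11.4 CPM of the WT-con livers. Its log2 fold change was -1.33 ± 0.183, a level 2.51-fold lower, with an adjusted p of 0.00296 in edgeR. The call held in every one of 16 alternatives, including 6 with a liver removed, which gave log2 values from -1.45 to -1.14.

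*Znrf3* had 13.0, 11.8 and 10.6 CPM in WT-con and 7.38, 8.67 and 6.82 CPM in HKO-con. All 3 HKO-con livers lay below all 3 WT-con livers, and the log2 fold change was -0.63 ± 0.137 (adjusted p = 0.0139). Without liver 1 of WT-con the adjusted p was 0.0504.

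The 2 other genes of the feedback and receptor group had negative values that did not pass. *Rnf43* was at 15.3, 21.5 and 11.2 CPM in HKO-con, all below WT-con, with a log2 fold change of -0.68 ± 0.226 and an adjusted p of 0.0584. Liver 2 of HKO-con was the highest of the 3, and without it the log2 fold change of *Rnf43* was -0.95 (adjusted p = 0.013). That was the only call of *Rnf43* in 6 fits with a liver removed, and 4 of 10 other alternatives called it. *Axin2* was at 11.8, 6.39 and 11.2 CPM in WT-con and 5.26, 6.74 and 7.10 CPM in HKO-con, which overlapped, at -0.62 ± 0.247 (adjusted p = 0.0993). Liver 2 was the low one in WT-con, and without it the log2 fold change of *Axin2* was -0.85 (adjusted p = 0.0229). That was the only call of *Axin2* in 6 fits with a liver removed, where the adjusted p reached 0.263, and 0 of 10 other alternatives called it.

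The genes of nitrogen metabolism had no called member on this contrast. *Glul* had 1133, 1368 and 1344 CPM in WT-con and 1550, 1336 and 1500 CPM in HKO-con, a log2 fold change of 0.19 ± 0.138. *Oat* had 797, 938 and 1108 CPM in WT-con and 1308, 843 and 1442 CPM in HKO-con, at 0.34 ± 0.227. Both pairs of groups overlapped, as did those of *Slc1a2*, *Rhbg*, *Tbx3* and *Lect2*.

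The ranges of *Lgr5*, *Znrf3* and *Rnf43* were the 3 that did not overlap between the genotypes, against 47.3% of all tested genes. *Tbx3* spread widely, from 17.5 to 30.9 CPM in WT-con and from 23.0 to 42.0 CPM in HKO-con. For *Slc1a2* leaving out liver 2 of HKO-con, its lowest at 153 CPM, gave a log2 fold change of 0.59 (adjusted p = 0.0213) in place of 0.38 ± 0.217 (adjusted p = 0.231). That was the only call of *Slc1a2* in 6 fits with a liver removed, where the adjusted p reached 0.54, and 1 of 10 other alternatives called it.

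**Figure D3:**
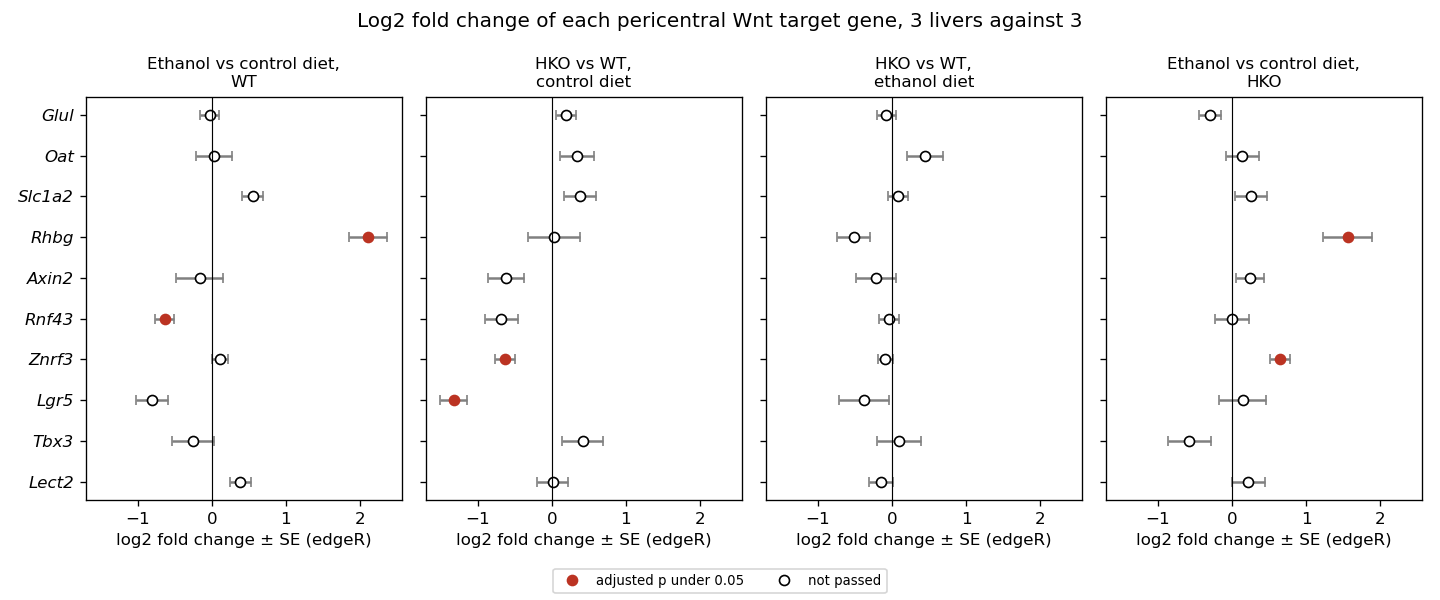
Log2 fold change ± SE of the 10 genes in the 4 comparisons of 3 livers with 3, with filled points for an adjusted p under 0.05. *Rhbg* is filled and positive in both ethanol comparisons, *Lgr5* and *Znrf3* are filled and negative for HKO against WT on the control diet, and no point is filled on the ethanol diet.

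On the ethanol diet no member was called between the genotypes, which does not show that their levels were equal. The count was 0 of 10 in edgeR and also in DESeq2 and limma, and 0 of 10 had an unadjusted p under 0.05 in edgeR. Of all tested genes 1.06% were called here, 0.684% higher and 0.378% lower. The value nearest to the threshold was *Rhbg*, at 33.7 to 62.5 CPM in WT-EtOH and 34.8, 28.8 and 32.1 CPM in HKO-EtOH, with a log2 fold change of -0.52 ± 0.222 (adjusted p = 0.243 in edgeR). *Znrf3* had 13.0, 12.5 and 12.7 CPM in WT-EtOH and 12.5, 12.4 and 11.0 CPM in HKO-EtOH, at -0.09 ± 0.103. *Lgr5* had 5.66, 4.23 and 2.21 CPM in HKO-EtOH, which overlapped WT-EtOH, at -0.38 ± 0.34. Only 1 member, *Znrf3*, had ranges that did not overlap, by less than the rounding of these values, against 27.9% of all tested genes. The members' median log2 fold change was -0.081, against -0.0081 for all tested genes.

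Within livers labelled *Ahr* HKO, ethanol was compared with the control diet. *Rhbg* and *Znrf3* rose, and no member fell. Of all tested genes 31.2% were called, 15% higher and 16.1% lower, so 2 of 10 members lies below the share called overall. The median log2 fold change was 0.18 for the 10 members, and -0.017 for all tested genes.

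The *Rhbg* level was 17.3, 7.52 and 7.56 CPM in HKO-con and 34.8, 28.8 and 32.1 CPM in HKO-EtOH. Liver 1 of HKO-con stood above the other two, yet below every ethanol liver. The log2 fold change was 1.56 ± 0.327, or 2.95-fold (adjusted p = 0.0128), and it was 2.08 without that liver.

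*Znrf3* went from 6.82 to 8.67 CPM in HKO-con to 11.0 to 12.5 CPM in HKO-EtOH, with a log2 fold change of 0.65 ± 0.132 (adjusted p = 0.0117). These 2 genes were the only members whose ranges did not overlap, against 49.8% of tested genes. Both calls held in all 16 alternatives, those without a liver included.

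The other members were not called. *Glul* had 1380, 1110 and 1089 CPM in HKO-EtOH, with the highest just above the lowest of HKO-con, at -0.29 ± 0.147 (adjusted p = 0.166). On quantile-normalized log2(FPKM + 1) limma gave -0.42 for *Glul* (adjusted p = 0.019). That was 1 of 2 calls of *Glul* in 10 alternatives with all livers. The 6 edgeR fits with a liver removed did not call it (adjusted p from 0.104 to 0.403). *Tbx3* had 15.7, 23.7 and 29.9 CPM in HKO-EtOH, at -0.58 ± 0.289 (adjusted p = 0.166). *Lgr5* remained at 2.21 to 5.66 CPM, at 0.14 ± 0.318, and *Rnf43* at 13.8 to 17.5 CPM, at 0.01 ± 0.232.

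Other cell types moved in the same comparison, where 16.1% of all tested genes were lower. All 8 of 8 Kupffer cell markers were lower in HKO-EtOH than in HKO-con, with a summed level of 206 to 258 CPM against 338 to 923 CPM, and 6 of 10 liver endothelial markers were lower, at 293 to 326 CPM against 455 to 480 CPM. The part of these cells in the members' values was not tested. In WT livers neither list had a called gene between the diets.

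The effect of ethanol was compared between the genotypes by the interaction of genotype and diet over all 12 livers, positive where the change on ethanol was more positive in HKO. *Znrf3* was the 1 member called, at 0.54 ± 0.163 (adjusted p = 0.0341), where 22.3% of all tested genes were called, 11.2% higher and 11.1% lower. The ethanol effect on *Znrf3* was 0.11 ± 0.11 in WT, which was not called, and 0.65 ± 0.132 in HKO, which was. Removing each liver in turn kept the call 4 of 12 times, with adjusted p values from 0.0169 to 0.0817, and 7 of 9 other alternatives kept it, all but library totals alone (0.34, adjusted p = 0.228) and limma without quantile normalization (0.15, adjusted p = 0.386). It was lost without livers 1 or 3 of HKO-con, livers 1 or 2 of HKO-EtOH, livers 1 or 2 of WT-con, and livers 2 or 3 of WT-EtOH.

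*Glul* had an interaction of -0.27 ± 0.184 (adjusted p = 0.324) that was called only by limma without quantile normalization (-0.52, adjusted p = 0.0361). Neither *Lgr5* (0.95 ± 0.412, adjusted p = 0.121) nor *Rnf43* (0.64 ± 0.284, adjusted p = 0.127) passed. For *Rhbg*, whose rise was called in both genotypes, the interaction was -0.55 ± 0.454 (adjusted p = 0.416), so its fold changes in WT and HKO were not shown to differ. The members' median interaction was -0.028, and that of all tested genes was -0.025. The livers of each of the 4 groups serve in more than 1 of these comparisons. The 3 calls of *Znrf3* all use the same HKO-con livers, so they are not independent.

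The 2 deposited measures parted for *Slc1a2*. The ratio of FPKM to CPM depends on gene length and on how each measure scales a library, which for CPM includes the TMM factor. For the other 9 members it varied 1.27- to 1.29-fold over the 12 livers. For *Slc1a2*, listed with 3 transcripts, it varied 1.86-fold, from 0.113 to 0.211. Relative to the ratio of *Glul* in the same liver, it was 0.382, 0.448 and 0.335 in WT-con and 0.459, 0.494 and 0.650 in HKO-con. All 3 HKO-con livers exceeded all 3 WT-con livers. The same relative ratio was 0.368 to 0.397 in WT-EtOH and 0.437 to 0.449 in HKO-EtOH. Its range over livers was 1.94-fold for *Slc1a2*, 1.01-fold for *Tbx3* and 1.06-fold for *Znrf3*.

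The 2 measures gave different values for *Slc1a2* accordingly. Its difference between HKO-con and WT-con was 0.38 on the log2 scale by counts and 0.79 by limma on log2(FPKM + 1) without quantile normalization. The change on ethanol in HKO was 0.26 by counts and -0.02 by the same limma fit. None of these values passed the test except the 0.79 (adjusted p = 0.0484). Use of transcripts was not measured in the values used here.

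**Figure D4:**
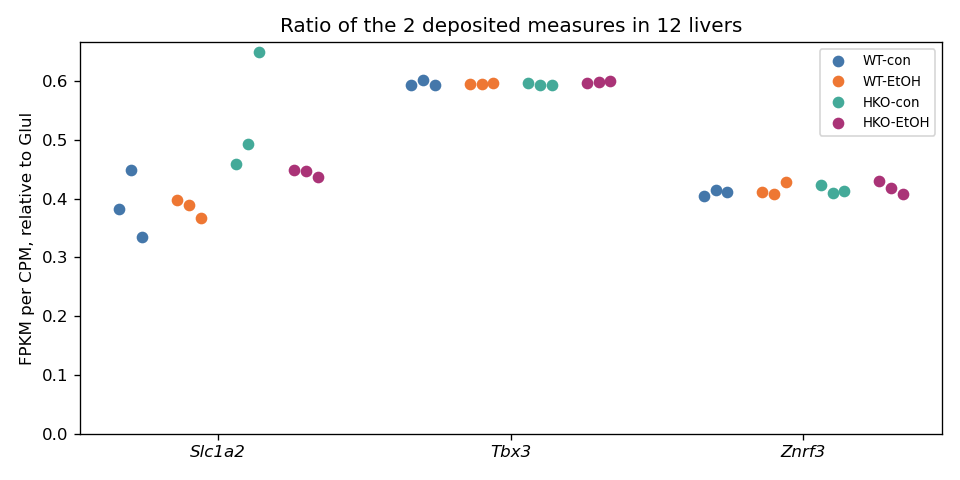
FPKM per CPM of 3 genes relative to the same ratio of *Glul* in the same liver, with 1 point per liver coloured by group and the axis from 0. The points of *Slc1a2* spread from 0.335 to 0.650, with HKO-con highest, while those of *Tbx3* and *Znrf3* lie close together.

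The rest of the Wnt pathway was described from lists of genes with a known role in it. Of the inhibitors on the control diet, 4 of 8 tested genes (of 16 listed) were lower in HKO-con than in WT-con and none was higher, where 14.4% of all tested genes were lower and 15.3% higher. *Tnfrsf19*, a receptor of the TNF family and Wnt target, averaged 6.28 CPM in WT-con and 1.47 CPM in HKO-con (log2 fold change -2.09 ± 0.194, adjusted p = 0.00107). *Notum*, which encodes an enzyme that strips the lipid from Wnt ligands, averaged 56.2 CPM in WT-con and 17.3 CPM in HKO-con (-1.70 ± 0.2, adjusted p = 0.00179). *Nkd1*, an inhibitor acting on Dishevelled, was at -0.85 ± 0.143 and *Kremen1*, a coreceptor of Dickkopf, at -0.65 ± 0.102.

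On ethanol in HKO livers, where 15% of all tested genes rose, 2 of these 8 inhibitors rose, *Notum* by 1.46 ± 0.191 and *Tnfrsf19* by 1.87 ± 0.273 on the log2 scale, and none fell. *Notum* averaged 55.0 CPM in WT-EtOH and 47.9 CPM in HKO-EtOH, and its interaction was 1.50 ± 0.25 (adjusted p = 0.0026). In WT livers 1 of the 8 inhibitors, *Wif1*, was called lower on ethanol, where 4.48% of all tested genes were. It had 22 to 62 counts in the WT-con livers and 0, 6 and 0 counts in the WT-EtOH livers. No inhibitor was called between the genotypes on the ethanol diet, where 1.06% of all tested genes were. The list's median log2 fold change between the genotypes on the control diet was -1.02, against 0.027 for ethanol in WT and 0.42 for ethanol in HKO.

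Among the receptors, 12 of 17 were tested. In HKO-con 3 were lower than in WT-con (14.4% of all tested genes) and none was higher: *Fzd8* (-1.82 ± 0.155), *Fzd4* (-1.36 ± 0.211) and *Lgr4* (-0.46 ± 0.106), genes of 2 Frizzled receptors and of an R-spondin receptor. *Fzd8* averaged 20.2 CPM in WT-con, 7.95 CPM in WT-EtOH, 5.70 CPM in HKO-con and 10.3 CPM in HKO-EtOH. *Fzd8* and *Lgr4* also fell on ethanol in WT, by 1.34 and 0.57 on the log2 scale, and on ethanol in HKO *Fzd8* rose by 0.85 and *Fzd6* fell by 0.95. No receptor was called between the genotypes on ethanol, where 1.06% of all tested genes were. For the interaction 3 were called, all positive, where 11.2% of all tested genes were positive.

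Ligands of the pathway were scarce. Of 22 Wnt and R-spondin genes 8 were tested, and *Wnt5b* was the 1 called, at a mean of 5.25 CPM in WT-con, 2.71 CPM in HKO-con and 4.63 CPM in HKO-EtOH (-0.96 ± 0.201 between the genotypes on the control diet and 0.78 ± 0.226 for ethanol in HKO). Of all tested genes 14.4% were lower in HKO-con and 15% rose on ethanol in HKO, so 1 of 8 in each lies near those shares. No ligand was called for ethanol in WT, for the genotypes on ethanol or for the interaction. There 8.72%, 1.06% and 22.3% of all tested genes were called. Of the 2 genes of Wnt secretion, *Porcn*, whose product attaches the lipid to Wnt ligands, was lower in HKO-con (-0.77 ± 0.157) and rose on ethanol in HKO (1.04 ± 0.154). The same shares of 14.4% and 15% stand beside this 1 of 2 genes.

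*Rspo3*, *Wnt2* and *Wnt9b*, the ligands best known from liver endothelium, were singled out after their values were seen. *Rspo3* averaged 4.70 ± 0.218 CPM (SD, n = 3) in WT-con, 6.17 ± 0.457 in WT-EtOH, 4.58 ± 0.716 in HKO-con and 5.24 ± 0.355 in HKO-EtOH. None of the 3 was called in any comparison. The nearest was *Rspo3* for ethanol in WT, at 0.39 ± 0.132 (adjusted p = 0.112). The 8 markers of central vein endothelium, a list that includes these ligands, summed to 85.2 to 107 CPM in HKO-con, above the 41.3 to 69.5 CPM of all other livers. Of these 8 markers 2 were called higher in HKO-con than in WT-con, where 15.3% of all tested genes were. They were *Fabp4*, at a mean of 8.62 CPM in WT-con and 44.8 CPM in HKO-con, and *Thbd*, at 3.20 and 14.8 CPM. The list's median log2 fold change there was 0.022, with *Rspo3* at -0.04, *Wnt2* at -0.17 and *Wnt9b* at 0.33, so the higher sum was not a rise of the list as a whole. In HKO-EtOH 3 were lower than in HKO-con, where 16.1% of all tested genes were. What that list contributed to the members' values was not tested.

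The core of the beta-catenin pathway, with 20 of 21 genes tested, moved both ways on the control diet, with 4 genes higher and 5 lower in HKO-con, against 15.3% and 14.4% of all tested genes. The lower ones included *Ctnnbip1*, an inhibitor of beta-catenin binding (-1.06 ± 0.156), *Btrc*, a subunit of the ligase that degrades beta-catenin (-0.85 ± 0.113), the Dishevelled gene *Dvl2* (-0.85 ± 0.189) and the TCF gene *Tcf7l2* (-0.73 ± 0.127). The kinase gene *Gsk3b* was higher (0.45 ± 0.0904). On ethanol in HKO 3 rose and 1 fell, against 15% and 16.1% of all tested genes. In WT 1 fell (*Btrc*, -0.69 ± 0.122), against 4.48%, and between the genotypes on ethanol none was called. For the interaction 4 were positive and 1 negative, against 11.2% and 11.1% of all tested genes.

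**Figure D5:**
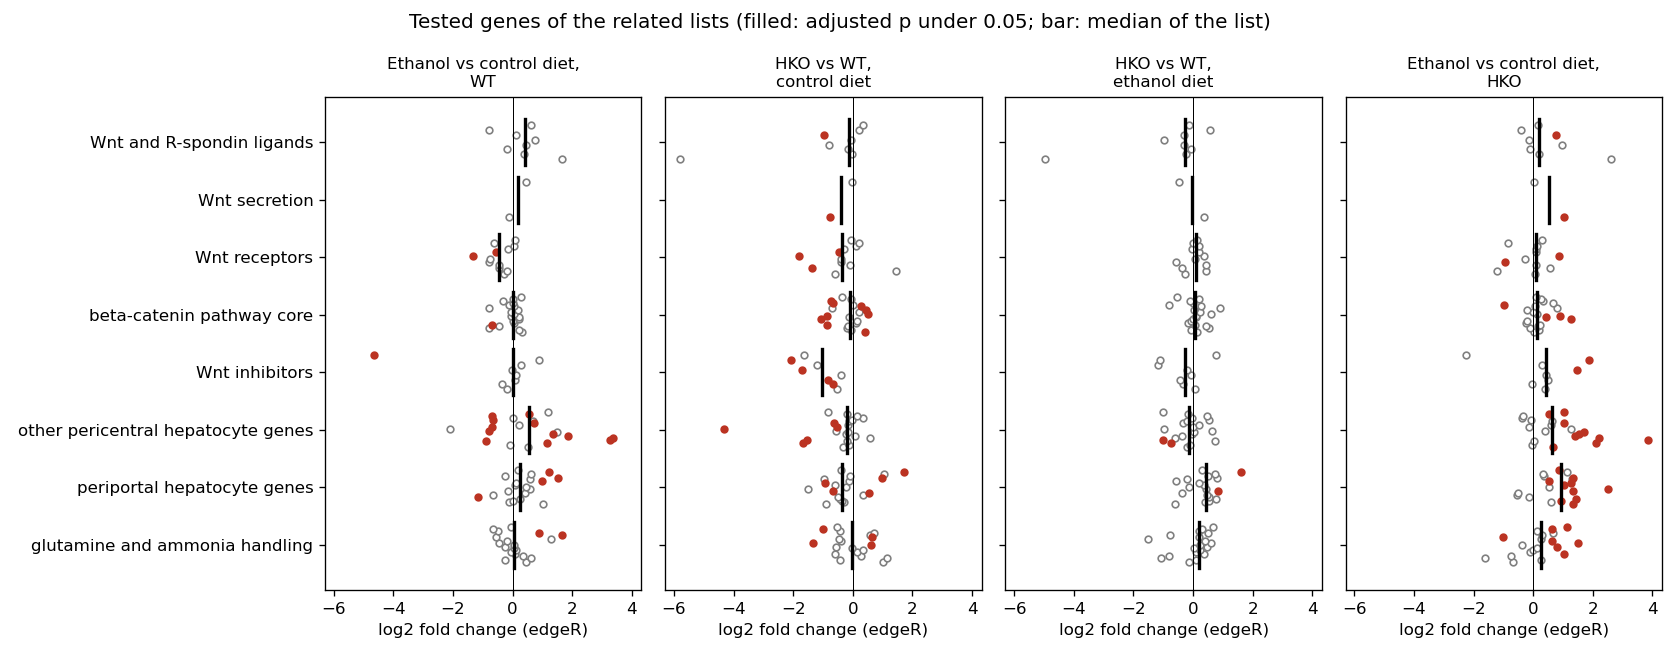
Log2 fold change of each tested gene of 8 lists in the 4 comparisons of 3 livers with 3, with filled points for an adjusted p under 0.05 and a bar at the median of each list. On the control diet the Wnt inhibitors have a median of -1.02 for HKO against WT, and on ethanol in HKO the pericentral and periportal lists lie mostly to the right of 0.

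Among other pericentral hepatocyte genes, 20 of 20 tested, 7 rose and 5 fell on ethanol in WT, and on ethanol in HKO 10 rose and none fell, where 4.24% and 4.48% of all tested genes rose and fell in WT, and 15% and 16.1% in HKO. *Cyp2a5*, a P450 gene close in sequence to its *Cyp2a* relatives and so of uncertain count, averaged 382 CPM in WT-con, 3710 CPM in WT-EtOH, 130 CPM in HKO-con and 1863 CPM in HKO-EtOH. *Nr1i3*, the gene of the nuclear receptor CAR, rose by 0.72 ± 0.101 in WT and by 1.03 ± 0.197 in HKO. *Gulo*, the last enzyme of vitamin C synthesis, fell by 0.68 on ethanol in WT. In HKO-con 5 of the 20 were lower than in WT-con and none higher, against 14.4% and 15.3% of all tested genes. Between the genotypes on the ethanol diet 2 were lower and none higher, against 0.378% and 0.684%. Those 2 were *Cyp1a2*, used above to check the labels, and *Cyp2a5*, both also among the 5 lower in HKO-con. A positive interaction was called for 3, against 11.2% of all tested genes.

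Periportal hepatocyte genes, which lie at the opposite end of the lobule, also rose on ethanol in HKO, 10 of 19, with none falling, against 15% and 16.1% of all tested genes. *Cyp2f2*, a periportal P450 gene, averaged 1099 CPM in WT-con, 984 CPM in WT-EtOH, 697 CPM in HKO-con and 1756 CPM in HKO-EtOH, with an interaction of 1.49 ± 0.17 (adjusted p = 0.000398). *Hal*, the enzyme that opens histidine breakdown, rose by 1.26 ± 0.154 in HKO. In WT 3 rose on ethanol and 1 fell, against 4.24% and 4.48% of all tested genes. Those that rose included the gluconeogenic gene *Pck1* (1.51 ± 0.169) and *Tat*, tyrosine aminotransferase (1.24 ± 0.261). In HKO-con 3 were higher and 2 lower than in WT-con, near the 15.3% and 14.4% of all tested genes. In HKO-EtOH 2 were higher than in WT-EtOH, against 0.684% of all tested genes, and 4 had a positive interaction, against 11.2%.

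Of 20 genes that handle glutamine and ammonia outside the members, 19 were tested. On ethanol 2 rose in WT and none fell, and in HKO 6 rose and 1 fell. Of all tested genes 4.24% rose and 4.48% fell in WT, and 15% rose and 16.1% fell in HKO. The 6 of 19 that rose in HKO thus lay above that share, and the 1 that fell lay below its share. *Prodh*, proline dehydrogenase, averaged 228 CPM in WT-con, 90.4 CPM in HKO-con and 255 CPM in HKO-EtOH, and the amino acid transporter gene *Slc38a4* averaged 1082 CPM in WT-con, 535 CPM in HKO-con and 836 CPM in HKO-EtOH. On the control diet 2 were higher and 2 lower in HKO, below the 29.7% called among all tested genes. On ethanol none was called between the genotypes, and 6 had a positive interaction, against 11.2% of all tested genes.

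Of the remaining marker lists, 3 of 9 stellate cell markers were higher on ethanol in WT, where 4.24% of all tested genes were. On ethanol in HKO 2 were higher and 2 lower. Of all tested genes 15% were higher and 16.1% lower in that comparison, which the counts below share. Leukocyte markers summed to 9.21 to 11.5 CPM in HKO-EtOH and 19.4 to 34.7 CPM in HKO-con, with 3 of 9 lower. Markers of cycling cells, 7 of 8 tested, had 3 lower and 1 higher in the same comparison, and *Ccnb1* and *Bub1* had 0 counts in all 3 HKO-EtOH livers. Cholangiocyte markers ranged from 46.3 to 477 CPM within HKO-con, with 1 of 7 higher and 1 lower on ethanol in HKO, near the shares of all tested genes.

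The pattern of 3 members over the 12 livers was compared with that of other tested genes with a mean count of at least 50, by Pearson's r of log2 CPM. These points share 4 groups, so r reflects the group means as well as single livers. Nearest to *Glul* were *C3* (r = 0.921), *Eif3l* (0.893), *Kcnj8* (0.887), *Akt1* (0.886) and *Lrrc32* (0.879). Nearest to *Lgr5* were *Lrch1* (0.878), *Kif13a* (0.878), *Podn* (0.875), *Nsmce2* (0.874) and *Hmgb3* (0.871), and nearest to *Axin2* were *Atad3a* (0.895), *Ubr3* (0.865), *Mpg* (0.844), *2010107G23Rik* (0.842) and *Mtx2* (0.838). Among the 45 pairs of members r ran from -0.69 for *Glul* and *Znrf3* to 0.73 for *Slc1a2* and *Lect2*.

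The members lie on 8 chromosomes of GRCm38, with 3 of them on chromosome 11: *Axin2* at chr11:108917828-108950783, *Rnf43* at chr11:87663087-87735539 and *Znrf3* at chr11:5276329-5444847. The others with a called value are *Rhbg* at chr3:88242874-88254739 and *Lgr5* at chr10:115450314-115587780. *Glul* spans chr1:153899929-153909723 and *Slc1a2* chr2:102658239-102790784.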

How the data were processed

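Liver poly(A) RNA of 12 mice was measured in 4 groups of 3, formed from the labels, which name no batch. The labels number separate livers, and n = 3 allows an exact permutation p no lower than 0.1. The authors deposited read counts per gene, without normalization, and FPKM, which is scaled by the authors to gene length and library size. TPM, a further scaling by the authors of the deposited values, was not used. Per the submitters' processing notes the tools were FastQC 0.11.7, Trimmomatic 0.38, HISAT2 2.1.0, Bowtie2 2.3.4.1 and StringTie 1.3.4d, with build mm10. How reads shared between related genes were counted is not given in the sources used here.

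Counts were tested with edgeR 4.0.16 in R 4.3.3 (quasi-likelihood, filterByExpr, TMM factors 0.925 to 1.16). The 6 livers of each pair of groups were fitted together, and all 12 for the interaction. Benjamini-Hochberg adjustment covered the 14038 tested genes, and a gene was called at an adjusted p under 0.05 without a minimum fold. CPM is relative to the library total times the TMM factor. The spread between livers, rather than counting error, set the precision, since replicates differed by a chi-square of 68 to 310 per degree of freedom and none of the 66 pairs of libraries was identical.

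Alternatives were DESeq2 1.42.0, limma 3.58.1 on log2(FPKM + 1) with or without quantile normalization and on log2(FPKM + 0.1), upper-quartile scaling, library totals alone, no filter on low counts, at least 10 counts in every library, all 12 livers in a single fit, the replicate block and each liver left out. The members and lists were chosen with earlier results of these data known. All members were named. Of each list at most 8 genes could be named, those called in most comparisons and then by smallest adjusted p. Positions and promoter windows came from RefSeq for GRCm38.p6, where all 10 members were matched by Entrez identifier.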

Additional observations from a re-analysis of the deposited data

Results flagged for a closer look

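The change on ethanol was compared between livers labelled *Ahr* HKO and WT by the interaction test of edgeR over 12 livers. It differed for 1 of the 10 members and for 19 of 47 other tested genes named here, 15 positive and 4 negative. The central vein markers *Fabp4* and *Thbd* were left out of these counts and were also called, both negative. Of all tested genes 11.2% were positive and 11.1% negative. List genes were named by the number of comparisons that called them, this test included, so the 19 of 47 was partly set by that choice. The values are log2 differences of the ethanol effect, HKO minus WT. *Znrf3* had 0.54, and the cause was not tested. In the Wnt pathway the values were positive for *Porcn* (1.15), *Fzd8* (2.19), *Lgr4* (0.67), *Fzd4* (1.00), *Notum* (1.50), *Btrc* (0.92), *Ctnnbip1* (1.05), *Dvl2* (0.96) and *Tcf7l2* (0.64), and negative for *Gsk3b* (-0.41). Among hepatocyte zonation and amino acid genes they were positive for *Gulo* (0.54), *Cyp2f2* (1.49), *Hal* (1.13), *Prodh* (1.94) and *Slc38a4* (1.31). Of genes named for a pattern near that of a member, *Podn* had 1.08 and *Akt1* -0.49. *Ahr* had -1.23. *Ccnb1*, with 0 counts in all HKO-EtOH livers, had a fitted -7.77, which depends on the prior count and is no measure of size. Groups of 3 livers were too small for the test of single outlying livers.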

How the results depend on the processing

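The main limits are 3 livers per group and a scaling that matters. With library totals alone the median log2 fold change of all genes was 0.15 for ethanol in WT, -0.20 for HKO against WT on ethanol and -0.23 for the interaction, against 0.01, -0.01 and -0.03 with TMM. In WT ethanol it called 1198 genes higher and 430 lower, against 595 and 629, for HKO against WT on ethanol 70 and 247, against 96 and 53, for ethanol in HKO 1655 and 2501, against 2108 and 2266, and for the interaction 906 and 2518, against 1576 and 1561. The limma fit that skipped quantile normalization (pseudocount 1) called 1631 and 406, 78 and 423, 1724 and 2465 and 810 and 2712 in the same order. On the control diet upper-quartile scaling called 1795 higher and 2424 lower, against 2149 and 2017. DESeq2 called 1189 and 1146 genes for ethanol in WT and 714 and 797 for HKO against WT on ethanol, and all 12 livers in a single fit called 329 and 246 for the latter.

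Members called for ethanol in WT numbered 2, but 1 with all 12 livers in a single fit and 4 with DESeq2, library totals alone or limma without quantile normalization, and 1 to 2 without a liver. For HKO against WT on the control diet they were 2, and 1 to 4 without a liver (1 without liver 1 of WT-con, 4 without liver 2 of HKO-con). Of the 10 other alternatives there, 4 also called *Rnf43* and 1 also called *Slc1a2*. For the interaction they were 1, 0 with library totals alone, and 0 to 2 without a liver. The limma fit that skipped quantile normalization also called 1 there, but *Glul* (-0.516) in place of *Znrf3* (0.145). *Rhbg* in both ethanol comparisons, *Znrf3* for ethanol in HKO and *Lgr5* for HKO against WT on the control diet were called in all 16 alternatives.

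Signs turned in uncalled members only. For ethanol in WT, *Glul* was -0.03 but 0.11 with library totals alone and 0.14 with limma without quantile normalization, and *Oat* was 0.03 but -0.12 with quantile-normalized limma at either pseudocount and -0.003067 with the replicate block. For HKO against WT on the control diet, *Rhbg* was 0.03 but -0.0233 with limma without quantile normalization, -0.104 and -0.0789 with quantile normalization (pseudocounts 0.1 and 1), -0.0693 with the replicate block and -0.0374 with upper-quartile scaling, and *Lect2* was 0.01 but -0.000761 with limma without quantile normalization, -0.0243 with the replicate block and -0.0574 with upper-quartile scaling. For HKO against WT on ethanol, library totals alone gave -0.114 for *Slc1a2* and -0.0924 for *Tbx3*, and limma without quantile normalization gave -0.093 for *Tbx3*, in place of 0.08 and 0.09. For ethanol in HKO, *Rnf43* was 0.01 but -0.0786 with library totals alone and -0.0287 with limma without quantile normalization, and *Slc1a2* was 0.26 but -0.0223 with the latter and -0.0548 (pseudocount 0.1) and -0.0548 (pseudocount 1) with quantile normalization. The interaction of *Oat* was 0.11 but -0.0765 and -0.0679 with library totals alone and the limma fit without quantile normalization. The cause was not tested.

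Without a liver, ranges crossing 0 were, for ethanol in WT, -0.13 to 0.26 for *Oat*, -0.109 to 0.0215 for *Glul* and -0.483 to 0.0491 for *Axin2*. For HKO against WT they were -0.49 to 0.24 for *Rhbg* and -0.20 to 0.21 for *Lect2* on the control diet, and on ethanol -0.106 to 0.0574 for *Rnf43*, -0.14 to 0.39 for *Tbx3*, -0.42 to 0.11 for *Axin2*, -0.24 to 0.004699 for *Lect2* and -0.0399 to 0.186 for *Slc1a2*. For ethanol in HKO they were -0.20 to 0.28 for *Rnf43*, -0.0584 to 0.296 for *Oat* and -0.18 to 0.43 for *Lgr5*, and for the interaction -0.12 to 0.28 for *Oat* and -0.366 to 0.0437 for *Lect2*.

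With the replicate block 2, 2, 0 and 3 members were called in the 4 comparisons of 3 livers with 3 and 1 for the interaction. The additional one was *Tbx3* for ethanol in HKO (-0.58). Over all genes the block called 284 higher and 255 lower for ethanol in WT and 151 and 96 for HKO against WT on ethanol. Same-numbered livers had deviations correlated at -0.09 to 0.18 and share only a number.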
